A study of Mus musculus with 2 samples.

Results

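Nuclear receptor genes other than the classical steroid receptors were examined in open chromatin of the mouse adrenal gland. The members are a list of 30 gene names, matched by symbol to the basic gene set of GENCODE M21 on the mouse assembly mm10 (GRCm38). A gene record was found for 29 names, which are 29 of 21911 protein-coding genes. The remaining name, Nr1d1-as, had no record in that set and is not analysed here.

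Adrenal glands came from males of B6CASTF1/J at 8 to 10 months of age. These mice are hybrids of C57BL/6J and CAST/EiJ and carry both parental alleles, while every sequence printed here is the C57BL/6J reference. There is 1 group with 2 biological replicates, called pool 1 and pool 2, each made from 6 biosamples and sequenced as 1 library. One donor identifier stands on both pools in the labels, which do not say how many animals were used. DNase-seq sequences the fragments released when the enzyme DNase I cuts nuclei, so that accessible DNA appears as peaks. Footprints are short stretches inside accessible DNA that were protected from the enzyme. There was no control or treated group, so values of both pools are described without a test.

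Nuclear receptors are transcription factors that bind DNA through a zinc finger domain, and many of them are switched by small lipophilic ligands such as thyroid hormone, retinoids, vitamin D, fatty acids, oxysterols and bile acids. Several work as partners of a retinoid X receptor (RXR). Without ligand many such pairs hold corepressors on DNA, and ligand exchanges these for coactivators. Their sites are built from a hexamer close to AGGTCA, either as repeats with a fixed gap or as 1 hexamer with an extension such as TCAAGGTCA. In the adrenal cortex the best known member of the wider family is Nr5a1, the steroidogenic factor, whose close relative Nr5a2 is on the list.

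The longer of the authors' peak lists held 117371 peaks in pool 1 and 146307 in pool 2, with a median signal of 0.699 and 0.727. The footprint lists held 272595 and 319381 entries. The sources used here do not state how the signal was scaled, so the sequencing depth of the pools is unknown. A peak at the promoter in both pools was present for 7 of 8 cortex markers and 7 of 8 medulla markers (87.5% of each list). The share over all protein-coding genes was 61.9%. The exceptions were Hsd3b1, which had none, and Pnmt, which had a peak of 0.696 in pool 2 alone. Of markers of neighbouring or infiltrating cells, 2 of 8 hepatocyte, 2 of 8 kidney tubule, 4 of 8 adipocyte and 4 of 8 macrophage genes were open at the promoter in both pools. These lists are short, and no difference from the share over all genes was tested. In a whole gland, a weak peak in all cells and a strong peak in few cells cannot be told apart.

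A promoter peak, meaning a peak within 1 kb of a transcription start site (TSS) of the gene, was present in both pools at 23 of 29 members. That is 79.3% of members, where 61.9% of all protein-coding genes had one. No member had a promoter peak in only 1 pool, and 6 had none: Esrrb, Nr1i3, Hnf4a, Hnf4g, Nr2e1 and Nr2e3. Footprints within 1 kb of a TSS in both pools were found at the same number, 23 members (79.3%), beside 59.7% of protein-coding genes. At least 3 footprints in each pool were present at 22 members, beside 52.4% of genes. Rxrg was the exception, with 1 footprint in each pool. In the shorter peak list, 20 members (69.0%) kept a promoter peak in both pools, beside 56.7% of genes.

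Openness at these promoters spanned a wide range. The authors' signal of the strongest promoter peak, averaged over the pools, ran from 0.380 at Nr5a2 to 17.2 at Esrra. Its median over the 23 open members was 3.28, and over all open protein-coding promoters it was 3.54. Of the 23, 10 lay above the median of genes. The members thus had a promoter peak at a higher share than genes at large, and their median level once open was slightly lower. Neither difference was tested. In the order of levels there were 22 neighbouring pairs, and the ranges of the pools overlapped in 15 of them. Only Esrra, Nr2c2 and Rxrb stood clear of both neighbours in that order, and the other breaks lay below Ppara, Nr2f1, Nr1h3 and Nr1i2. Across the 23 members the levels in the pools had a Spearman correlation of 0.976, given as a description of points that share their libraries.

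**Figure D1:**
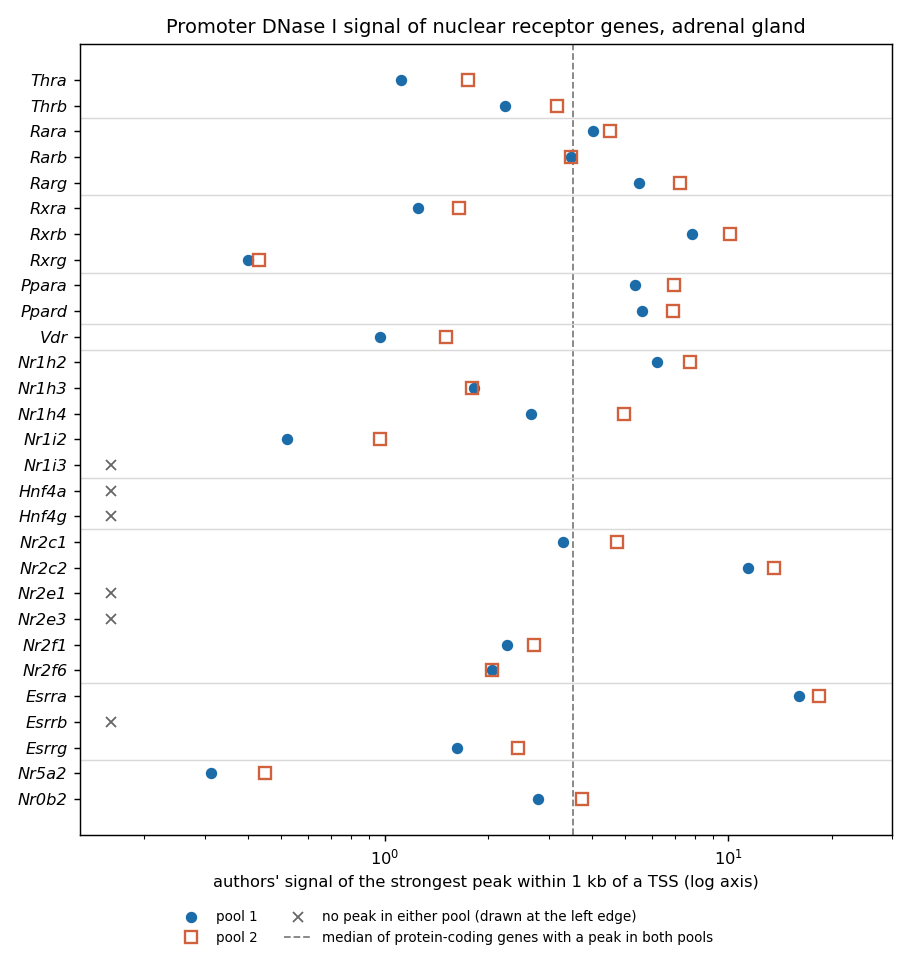
Signal of the strongest DNase I peak within 1 kb of a TSS (log axis) for each of 29 genes, ordered by receptor family, with circles for pool 1 and squares for pool 2. Crosses mark the 6 genes without a peak, and the dashed line is the median of 3.54 over open protein-coding promoters, above which Esrra and Nr2c2 stand farthest.

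The estrogen-related receptors are orphan receptors that bind TCAAGGTCA and drive genes of mitochondrial energy metabolism. Esrra had the highest promoter signal on the list, 16.1 in pool 1 and 18.4 in pool 2 (17.2 ± 1.62, mean ± SD, n = 2), above 99.8% of open protein-coding promoters. Its peak at chr19:6921801-6922080 lay just upstream of the only start in the basic gene set, and the promoter window held 15 and 16 footprints. The bases of that peak are shown because they carry the strongest signal and a dense set of protected stretches. Capitals mark the 124 of 267 bases that lay in a footprint of both pools, and the sequence runs in the direction of the gene.
Esrra (chr19:6921814-6922080, minus strand): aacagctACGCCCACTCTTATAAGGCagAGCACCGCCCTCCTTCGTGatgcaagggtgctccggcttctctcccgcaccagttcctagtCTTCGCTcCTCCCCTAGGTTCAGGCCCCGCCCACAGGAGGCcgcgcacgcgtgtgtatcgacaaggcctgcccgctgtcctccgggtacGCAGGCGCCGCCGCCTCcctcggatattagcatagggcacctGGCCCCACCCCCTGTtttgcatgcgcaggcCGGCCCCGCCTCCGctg
The capitals take in both matches to GGGCGG, the core of SP factor sites, which was sought on both strands. Windows of the same length held that hexamer at 50.5% of all 23986 open promoter regions shared by the pools, so its presence is common.

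The other members of that family were far less open. Esrrg, which is best known from muscle and brain, had a promoter signal of 1.63 in pool 1 and 2.44 in pool 2 (2.03 ± 0.573, n = 2). That peak lay at the start of Esrrg-201 and Esrrg-202. The upstream start, Esrrg-203, carried weaker peaks with a highest signal of 0.490 and 0.688, spread as 6 peaks in pool 1 and 4 in pool 2. Esrrb, known for its role in pluripotent cells, had no peak at any of 3 groups of start sites in either pool, nor a base listed at a false discovery rate (FDR) under 0.05. Of 8 textbook ERR targets of energy metabolism, 8 had a promoter peak in both pools, beside 61.9% of all protein-coding genes. The highest were Atp5b, a subunit of ATP synthase, at 10.3 and 13.2, and Cycs, cytochrome c, at 9.18 and 10.6.

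Thyroid hormone receptors bind triiodothyronine. Thrb had a promoter signal of 2.24 in pool 1 and 3.17 in pool 2 (2.71 ± 0.657, n = 2) with 11 and 14 footprints. Thra reached 1.11 and 1.74 (1.43 ± 0.444, n = 2) with 3 and 4 footprints. In both pools Thrb was the more open of the pair. The strongest Thra peak was centred 18 bp upstream of the first start in pool 1, and 178 bp downstream of the other start in pool 2, so these values come from neighbouring peaks. The second start of Thrb, Thrb-202, showed no peak in either pool. Of 9 genes for transport, deiodination and response to the hormone, 5 had a promoter peak in both pools (55.6%, beside 61.9% of all protein-coding genes). Klf9, a transcription factor gene induced by thyroid hormone, led with 8.05 and 9.51, followed by the transporter Slc16a10 with 4.26 and 5.33. The transporter Slco1c1, the deiodinase Dio1 and the corepressor gene Hr had none in either pool.

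The retinoic acid receptors were all open. Rarg was highest at 5.48 in pool 1 and 7.23 in pool 2 (6.36 ± 1.24, n = 2), Rara followed at 4.04 and 4.52 (4.28 ± 0.335, n = 2), and Rarb had 3.49 in both pools (SD 0.00581, n = 2). The Rarg values were above those of Rara, and those of Rara above those of Rarb, in each pool. Rarg has 2 groups of start sites in the basic gene set, Rara has 4 and Rarb has 1. The gene record of Rarb reaches further upstream, to chr14:16819156, and starts outside the basic set were not examined.

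At Rarg the downstream start, Rarg-202, held the strong peak, while the upstream start, Rarg-201, had 1.10 and 1.48. Rara was open at 2 of its 4 groups of start sites in both pools, with 3.68 and 4.52 at Rara-201 and Rara-204, and 4.04 and 4.19 at Rara-202. Its strongest peak thus lay at Rara-202 in pool 1 and at Rara-201 and Rara-204 in pool 2. The remaining Rara starts, Rara-203 and Rara-207, had a peak in pool 2 alone, with 0.751 and 0.680. The strong Rarg-202 peak is shown because it was the most open promoter with a CpG content below the threshold used further on. Capitals mark the 73 of 240 bases footprinted in both pools.
Rarg (chr15:102246981-102247220, minus strand): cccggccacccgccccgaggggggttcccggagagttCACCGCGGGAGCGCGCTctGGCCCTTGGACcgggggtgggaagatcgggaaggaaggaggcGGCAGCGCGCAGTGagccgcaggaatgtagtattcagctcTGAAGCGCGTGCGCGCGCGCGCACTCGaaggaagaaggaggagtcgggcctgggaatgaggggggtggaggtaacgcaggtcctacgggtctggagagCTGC
It held 1 match to GGGCGG, outside the capitals, where 48.6% of open promoter regions of that length hold the hexamer.

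Rarb is a known retinoic acid target, through a direct repeat with a gap of 5 bases (DR5) in its promoter. A DR5 match was found in the Rarb peak at chr14:16575513-16575529 on the minus strand. The half-sites searched were degenerate, and both strands were read. Its 17 bases lay from -53 to -37 relative to the start in RefSeq (GRCm38.p6), and within an annotated exon of Rarb in GENCODE. All 17 bases were in a footprint in pool 1 and 11 were in pool 2. A DR5 of this kind occurred in 32 of 32851 promoters of RefSeq (0.097%), each 300 bases long. The site is shown with its nearest bases, and capitals mark the repeat.
Rarb (chr14:16575507-16575535, minus strand): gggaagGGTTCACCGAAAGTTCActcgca
A match is a description of letters and does not show which factor was bound. The start site of Gm48162, an antisense gene, lay 1 bp from this peak, so the signal at Rarb is shared with it.

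Retinoid X receptors are the shared partners of the receptors for thyroid hormone, retinoic acid, vitamin D and lipids. Rxrb had 7.86 in pool 1 and 10.1 in pool 2 (8.99 ± 1.60, n = 2), above 88.9% of open promoters. Its peak also covered starts of Slc39a7 and of Gm20427 on the other strand, and the share of each gene in the signal was not tested. Rxra had 1.25 and 1.65 (1.45 ± 0.282, n = 2). Rxrg, restricted to few tissues, had 0.401 and 0.432 (0.416 ± 0.0215, n = 2), from different starts in the pools. At the start open in both pools it had 0.223 and 0.432. So the pools gave the same order, Rxrb over Rxra over Rxrg, with no overlap between them. At Rxra only the first of 3 groups of start sites was open, and Rxra-202 and Rxra-203 had none.

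Of 13 genes for retinoid uptake, synthesis and breakdown, 6 had a promoter peak in both pools (46.2%, beside 61.9% of all protein-coding genes). The highest were Rdh10, a retinol dehydrogenase, at 3.23 and 4.70, and Dhrs3, a retinal reductase, at 1.87 and 2.21. Genes without a peak in either pool included the binding protein genes Rbp4, Crabp1 and Crabp2, the uptake receptor Stra6, and the retinoic acid hydroxylases Cyp26a1 and Cyp26c1.

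Peroxisome proliferator-activated receptors sense fatty acids. Both listed members were well open and almost level. Ppard had 5.62 in pool 1 and 6.88 in pool 2 (6.25 ± 0.895, n = 2), and Ppara, a driver of fatty acid oxidation, had 5.34 and 6.94 (6.14 ± 1.13, n = 2). Their ranges overlapped. Of 9 PPAR targets, 8 had a promoter peak in both pools (88.9%, beside 61.9% of all protein-coding genes). The highest was the fatty acid oxidation gene Acadm, at 11.4 and 12.5.

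The vitamin D receptor gene Vdr had 0.966 in pool 1 and 1.503 in pool 2 (1.23 ± 0.380, n = 2), above 18.1% of open promoters. Its strongest peak was centred 10 bp downstream of the start in pool 1 and 910 bp downstream in pool 2. Vdr was thus weakly open, with 12 and 9 footprints. Of 4 genes of vitamin D metabolism, 3 had a promoter peak in both pools. They were led by the hydroxylase Cyp2r1, at 1.72 and 2.55, and by Cyp24a1, which inactivates vitamin D, at 1.35 and 1.66. Cyp27b1, which makes the active hormone, had none.

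Oxysterol and bile acid receptors include the LXR genes Nr1h2 and Nr1h3 and the FXR gene Nr1h4. Nr1h2, the broadly expressed LXR, had 6.19 in pool 1 and 7.73 in pool 2 (6.96 ± 1.09, n = 2). Nr1h3, the LXR of liver, fat and macrophages, had 1.82 and 1.79 (1.81 ± 0.0212, n = 2). Among 8 LXR targets, 5 had a promoter peak in both pools (62.5%, beside 61.9% of all protein-coding genes). They were led by Lpcat3, a phospholipid acyltransferase, at 10.9 and 12.4, and Mylip, which degrades the LDL receptor, at 8.68 and 10.8. The sterol exporters of liver and gut, Abcg5 and Abcg8, had no peak.

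Nr1h4, the bile acid receptor of liver and gut, had the highest ratio between the strongest promoter peaks of the pools. Its signal was 2.67 in pool 1 and 4.98 in pool 2 (3.82 ± 1.64, n = 2), with 8 and 9 footprints. The peak lay at the upstream start, Nr1h4-203, whereas the downstream start of Nr1h4-201 and Nr1h4-202 had no peak and no base under an FDR of 0.05 in either pool. The peak is shown because it marks which of the starts was open. Capitals mark the 41 of 155 bases footprinted in both pools.
Nr1h4 (chr10:89533586-89533740, minus strand): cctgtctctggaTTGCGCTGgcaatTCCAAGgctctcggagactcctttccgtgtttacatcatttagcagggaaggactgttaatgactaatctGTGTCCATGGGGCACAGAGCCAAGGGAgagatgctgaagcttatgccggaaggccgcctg
No motif that was searched occurred in it, which says only that these letters are not in this window.

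The xenobiotic receptor genes of the same branch were weak or closed. Nr1i2, the pregnane X receptor, had 0.520 in pool 1 and 0.967 in pool 2 (0.744 ± 0.316, n = 2), and its peaks were centred upstream of the start. Nr1i3, the constitutive androstane receptor, had no promoter peak. Of 9 bile acid and xenobiotic target genes, 4 were open at the promoter in both pools (44.4%, beside 61.9% of all protein-coding genes). The highest were the hormone gene Fgf15, at 0.981 and 1.53, and the transporter gene Slc51b, at 0.765 and 0.967. The transporters Abcb11 and Slc10a1 and the detoxification enzymes Cyp2b10 and Ugt1a1 had none.

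Hnf4a and Hnf4g, which specify liver, kidney and gut epithelium, had no promoter peak at any start of the basic gene set in either pool. No base within 1 kb of those starts was listed at an FDR under 0.05. The gene record of Hnf4a begins upstream of them, at chr2:163506808, and starts outside the basic set were not examined. Hnf4g had no distal region within 50 kb either, the only member of which that held. Hnf4a, by contrast, had 8 distal regions.

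Among the remaining orphan receptors, Nr2c2 (testicular receptor 4) was the second most open, at 11.4 in pool 1 and 13.6 in pool 2 (12.5 ± 1.56, n = 2), above 97.0% of open promoters. Nr2c1, its relative, had 3.29 and 4.76 (4.02 ± 1.04, n = 2). The Nr2c2 peak was centred 890 and 880 bp downstream of the start of Nr2c2-201 and 152 and 162 bp upstream of that of Nr2c2-202. It is shown as the second strongest promoter peak of the list. A separate peak over the start of Nr2c2-201 had 2.03 in pool 1 and 2.45 in pool 2. Capitals mark the 109 of 260 bases footprinted in both pools.
Nr2c2 (chr6:92092141-92092400, plus strand): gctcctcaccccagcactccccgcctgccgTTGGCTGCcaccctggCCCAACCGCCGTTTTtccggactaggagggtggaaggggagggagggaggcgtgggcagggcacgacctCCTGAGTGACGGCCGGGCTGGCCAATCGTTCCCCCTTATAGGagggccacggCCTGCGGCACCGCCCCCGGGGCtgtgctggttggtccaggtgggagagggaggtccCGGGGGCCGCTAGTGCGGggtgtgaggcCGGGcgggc
It held 2 matches to GGGCGG, of which 1 lay wholly in capitals, and 1 match to CCAAT, the NFY box, wholly in capitals. Windows of this length held these motifs at 50.1% and 30.5% of open promoter regions.

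The COUP-TF genes were open at moderate levels. Nr2f6 had 2.06 in pool 1 and 2.05 in pool 2 (2.05 ± 0.00844, n = 2). Nr2f1, a regulator of neural and mesenchymal development, had 2.27 and 2.72 (2.49 ± 0.319, n = 2), from a peak upstream of Nr2f1-201. The downstream starts of Nr2f1, which serve Nr2f1-202, Nr2f1-203 and Nr2f1-205, had no peak in pool 1 and 5 peaks in pool 2, with a highest signal of 1.17. There, 0 bp were listed at an FDR under 0.05 in pool 1 and 1862 bp in pool 2. Nr2f1 also had the largest difference in promoter footprints among members, with 3 in pool 1 and 22 in pool 2. Nr2e1 and Nr2e3, receptors of neural progenitors and photoreceptors, had no promoter peak. At Nr2e1-201, 32 bp were listed in pool 1, with a lowest FDR of 0.0369.

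Nr5a2 recognises the same sites as the steroidogenic factor Nr5a1. It had the lowest promoter signal among open members, 0.312 in pool 1 and 0.448 in pool 2 (0.380 ± 0.0959, n = 2), from a peak downstream of the start of Nr5a2-202. The outermost starts, Nr5a2-201 and Nr5a2-203, had no peak, and Nr5a2-205 had one of 0.384 in pool 2 only. Nr0b2 encodes a small partner that lacks a DNA-binding domain and represses other nuclear receptors, Nr5a2 among them. It was more open, at 2.80 and 3.75 (3.28 ± 0.670, n = 2), with 6 and 9 footprints. The Nr0b2 peak is shown as a promoter poor in CpG dinucleotides. Capitals mark the 36 of 300 bases footprinted in both pools.
Nr0b2 (chr4:133552941-133553240, plus strand): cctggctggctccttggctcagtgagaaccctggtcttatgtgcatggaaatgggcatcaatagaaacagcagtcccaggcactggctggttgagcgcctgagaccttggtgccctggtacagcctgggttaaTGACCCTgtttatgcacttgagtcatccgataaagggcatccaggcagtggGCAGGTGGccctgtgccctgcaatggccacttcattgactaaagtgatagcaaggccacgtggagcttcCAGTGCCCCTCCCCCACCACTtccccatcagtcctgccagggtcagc
It held 1 match to the AP-1 motif (TGACTCA or TGAGTCA) and 1 to the E-box CACGTG, neither wholly in capitals. Among open promoter regions, windows of this length held them at 6.8% and 8.9%.

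Counted by start site, the members have 48 groups of starts lying apart from each other. Of these, 27 had a peak in both pools, 6 in 1 pool and 15 in none, and 14 of the 15 had no base under an FDR of 0.05 in either pool. Members with several groups numbered 14. All of their groups were open in both pools at 3 of them, some at 8 and none at 3. Among these 14, a gene called open by its strongest peak therefore often had other starts without a peak in both pools. The same counts were not taken over all protein-coding genes.

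**Figure D2:**
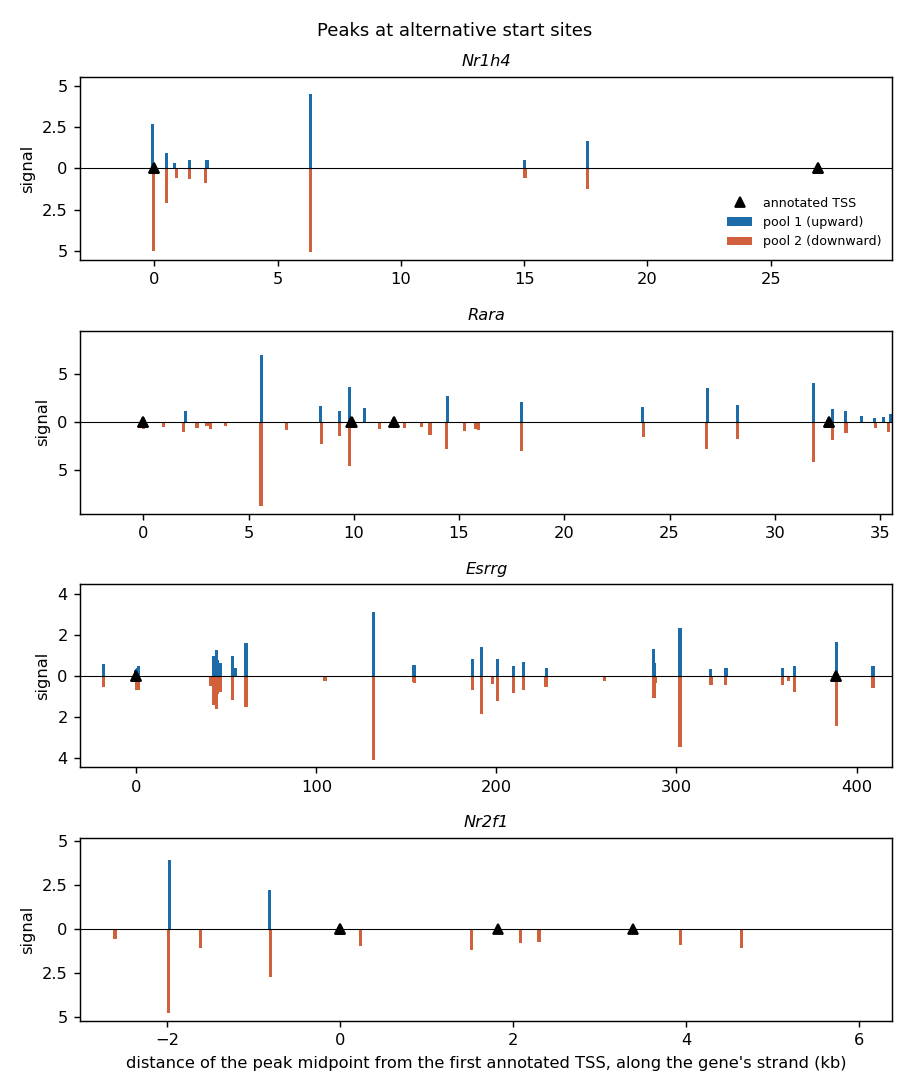
Signal of each peak (vertical, pool 1 upward and pool 2 downward) against distance from the first annotated TSS along the strand (kb) for Nr1h4, Rara, Esrrg and Nr2f1, with triangles at annotated starts. Peaks sit at the first Nr1h4 start and not the second, and those around the downstream Nr2f1 starts occur in pool 2 alone.

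CpG content went along with openness. A start was called CpG-rich where the observed over expected ratio of CpG within 250 bp reached 0.6. Over protein-coding genes, 91.4% of 12028 CpG-rich genes and 26.1% of 9883 others had a promoter peak in both pools. Among members, 17 of 19 CpG-rich genes and 6 of the 10 others did. By start site group, 20 of 23 CpG-rich and 7 of 25 others were open. The open members outside the CpG-rich class were Rarg, Nr1h3, Nr1h4, Nr1i2, Nr5a2 and Nr0b2. The class describes bases around starts, and the strongest Rarg peak lay outside that window. The CpG-rich members that stayed closed were Esrrb and Nr2e1.

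**Figure D3:**
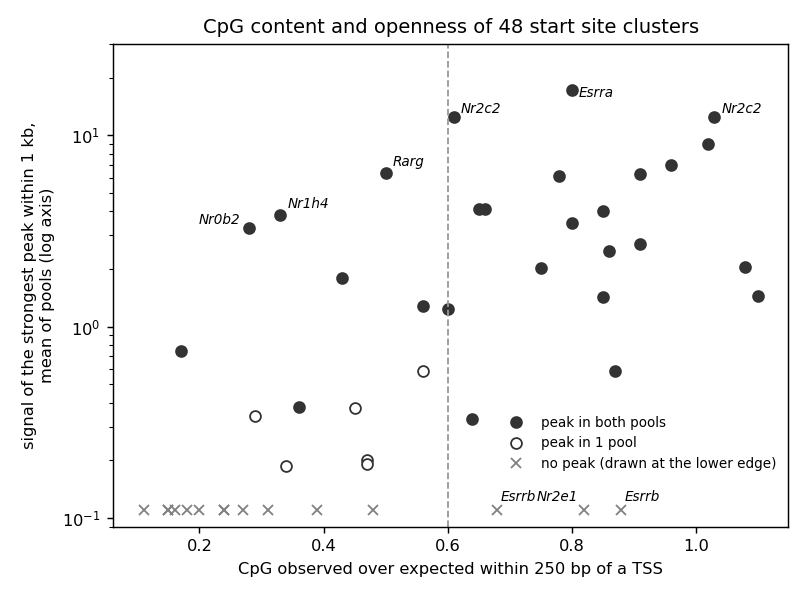
Mean signal of the strongest peak within 1 kb (log axis) against the CpG observed over expected ratio for 48 groups of start sites, with filled circles for a peak in both pools, open circles for 1 pool and crosses for none. The dashed line marks the ratio of 0.6, to the right of which 20 of 23 groups were open and the closed ones belong to Esrrb and Nr2e1.

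Away from starts, open regions were frequent near these genes. A distal region is a merged peak of both pools centred over 1 kb from every annotated start and within 50 kb of a start of the member. At least 1 was found at 28 of 29 members, beside 84% of protein-coding genes. The median was 6 per member and 4 per gene. Among genes with an open promoter the medians were 5 for members and 4 for genes, and among the others they were 7 and 2. Closed promoters on the list thus often lay in neighbourhoods with open regions, such as Nr1i3 with 14, Hnf4a with 8, Nr2e3 with 8 and Esrrb with 6.

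The members had 210 distal regions in all, of which 145 were centred in introns, 25 in exons and 40 between genes. The member itself contained 114 of them. The nearest annotated start belonged to the member for 99, and no region was near a pair of members. Their median signal was 1.20, beside 0.820 for all 72598 distal regions shared by the pools. Distance assigns no target, and several counts come mostly from other genes. Rara had the most, 23, of which 16 lay nearest to its own starts. Thra had 18, of which 4 did. Nr1i3 had 14, of which 0 did. All 9 at Rxra lay nearest to starts of Rxra.

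**Figure D4:**
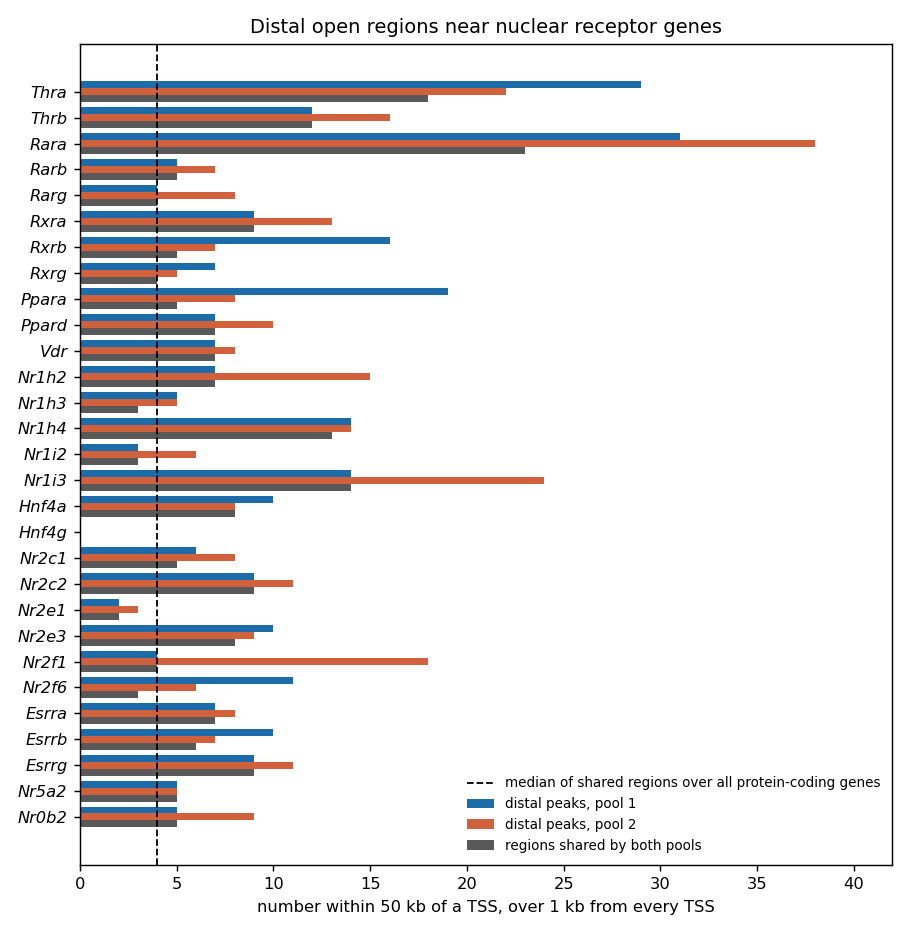
Number of distal peaks within 50 kb of each gene in pool 1 and pool 2, and of regions shared by both, as bars, with the median of 4 shared regions per protein-coding gene as a dashed line. Rara with 23 and Thra with 18 have the most shared regions, and Hnf4g has 0.

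The strongest of these regions lay at the 3′ side of Thra, in an intron of the clock repressor gene Nr1d1 at chr11:98773781-98774180, with 17.2 in pool 1 and 18.99 in pool 2. It was 1353 bp from a start of Nr1d1 and 32107 bp from one of Thra. Another at chr11:98783381-98783640 had 10.8 and 11.5, between genes, and also lay nearest to Nr1d1. The next in the same stretch were chr11:98786941-98787160 at 6.29 and 8.44, chr11:98788901-98789160 at 5.10 and 6.67, and chr11:98786621-98786820 at 5.16 and 5.76, all nearest to Msl1. Of the 10 strongest regions, 5 therefore belonged to the window of Thra and none of these lay nearest to Thra.

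The other strong regions were spread over the families. A region in an exon of Bad at chr19:6951461-6951780, upstream of Esrra, had 7.88 and 9.22. In an intron of Rara, chr11:98933281-98933520 had 6.96 and 8.73, higher than the promoter peaks of Rara in either pool. Within Nr1h4, chr10:89527141-89527380 had 4.50 and 5.05, located 6325 bp downstream of the open start. Near Nr0b2, chr4:133563321-133563400 had 4.76 and 4.49 with no footprint in either pool, and chr4:133599681-133599980 had 3.77 and 5.43, nearest to Sfn.

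Nuclear receptor motifs were not frequent in the members' own regions. In windows reaching 75 bp to either side of the centre of each region, any of DR1 to DR5, the inverted repeat IR1, TCAAGGTCA or TCAAGGCCA was present in 10 of 210 distal regions (4.76%, beside 5.16% of all distal regions). The same motifs were present in 2 of 48 promoter regions (4.17%, beside 1.28% of 23986). The bare hexamer AGGTCA, which TCAAGGTCA contains, occurred in 16.19% of distal regions beside 21.56%, and in 14.58% of promoter regions beside 8.25%. The hexamer GGGCGG occurred in 11.9% of distal regions beside 5.66%. AP-1 motifs occurred in 14.76% beside 18.97%. By these windows 8 members had a nuclear receptor motif. The share of protein-coding genes with one was not counted, so this number has no background. The small counts leave the promoter share resting on 2 regions, at Rara and Rarb.

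Over the whole length of the regions there were 16 such matches, and 6 of them had at least 50% of their bases in a footprint in both pools. How often matches in all shared regions lie in footprints was not counted, so this share has no background. The Rarb repeat shown above is one of the 6. The other 5 are extended half-sites in distal regions, shown with 25 bases on either side and the motif in capitals, because they are the places where letters and protection coincide.
Nr1i3 (chr1:171224009-171224067, minus strand): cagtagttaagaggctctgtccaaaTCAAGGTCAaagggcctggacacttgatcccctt
Nr1i3 (chr1:171228076-171228134, plus strand): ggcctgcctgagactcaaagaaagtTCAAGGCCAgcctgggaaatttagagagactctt
Esrrg (chr1:187653613-187653671, minus strand): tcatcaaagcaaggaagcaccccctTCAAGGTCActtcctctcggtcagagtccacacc
Ppard (chr17:28264195-28264253, minus strand): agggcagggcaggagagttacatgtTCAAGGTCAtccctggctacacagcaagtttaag
Hnf4a (chr2:163595195-163595253, minus strand): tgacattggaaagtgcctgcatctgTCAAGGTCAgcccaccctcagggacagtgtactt
The Nr1i3 pair lay between genes, nearest to Apoa2, in regions with 3.26 and 3.06 and with 1.39 and 2.10. The Esrrg site lay in an intron of Esrrg, in a region with 1.24 and 1.61, and the Ppard site in an intron of Ppard, in one with 1.13 and 1.04. The Hnf4a site, 48036 bp from an Hnf4a start and between genes, was in a region with 1.11 and 1.16. The central windows held TCAAGGTCA in 2.86% of the members' distal regions and in 2.13% of all, and TCAAGGCCA in 1.9% and 2.5%. These letters are shared by the ERR and NR5A groups, and the data do not say which factor, if any, was bound. Whether any of these sites lies in repeated sequence was not examined.

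A pair of matches without a footprint in both pools is shown for contrast, again with the motif in capitals.
Vdr (chr15:97890688-97890754, minus strand): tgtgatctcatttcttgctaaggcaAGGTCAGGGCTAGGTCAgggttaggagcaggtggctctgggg
Esrra (chr19:6921292-6921354, minus strand): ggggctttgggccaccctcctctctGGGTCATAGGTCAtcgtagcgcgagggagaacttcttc
The Vdr repeat had 0 footprinted bases in either pool, in an intronic region with a signal of 1.24 in each. The Esrra repeat, 485 bp downstream of the Esrra start in an intron, had 4 footprinted bases in pool 1 and 0 in pool 2, in a region with 1.28 and 1.44.

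Between the pools, most members moved with the genome. The log2 ratio of promoter signal, pool 2 over pool 1, had a median of 0.38 over the 23 open members (SD 0.25) and 0.38 over open protein-coding genes (SD 0.24). The signal was higher in pool 2 at 21 of the 23, beside 95.5% of genes. The ratio ran from -0.02 at Nr1h3 to 0.90 at Nr1h4, with 0.89 at Nr1i2. The strongest peaks of the pools were an overlapping pair at 18 of the 23 and lay at different places at Thra, Vdr, Rara, Rxrg and Nr1h3. Ratios were therefore also taken from the overlapping pair of peaks with the highest mean signal, a comparison chosen after seeing the data. By those pairs 9 members lay over 1 SD from the median of genes (0.38, SD 0.24), where 25.4% of genes did. The 5 on the high side were Nr1h4, Nr1i2, Rxrg, Vdr and Thra, and the 4 on the low side were Rara, Rarb, Nr2f6 and Nr1h3. Rxrg and Rara depended on the choice. The Rxrg ratio was 0.11 between the strongest peaks, which lie at different starts, and 0.95 at the start open in both pools (0.223 in pool 1 and 0.432 in pool 2). The Rara ratio was 0.16 between the strongest peaks, within 1 SD, and 0.05 from the overlapping pair.

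**Figure D5:**
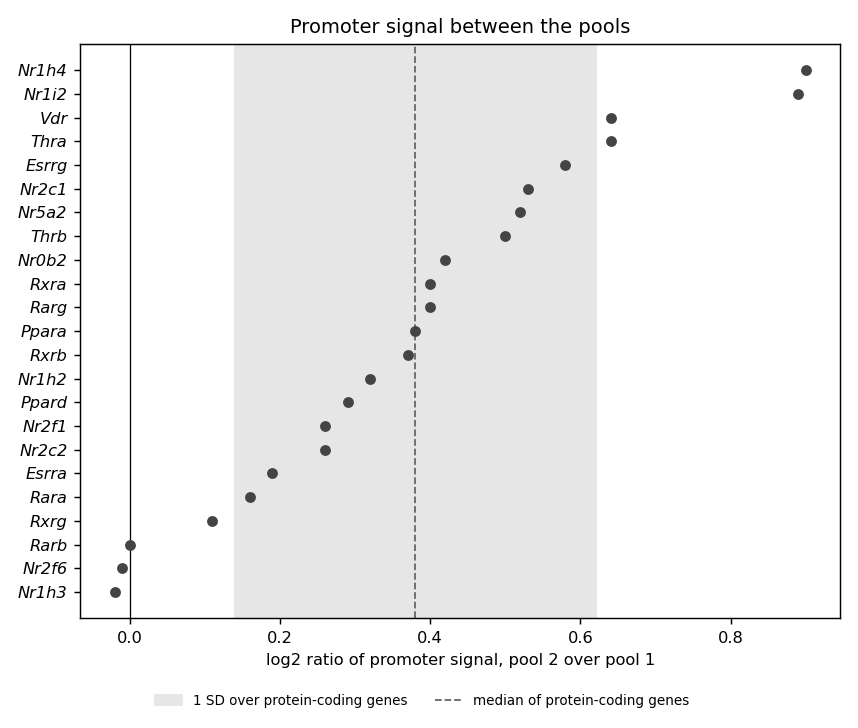
The log2 ratio of promoter signal, pool 2 over pool 1, for the 23 members that were open in both pools, 1 point per gene, from the strongest promoter peak of each pool (at Rxrg and Rara from different starts). The dashed line is the median of 0.38 over open protein-coding genes and the grey band 1 SD of 0.24, outside which Nr1h4 lies highest at 0.90 and Nr1h3 lowest at -0.02.

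The number of distal peaks within 50 kb was higher in pool 2 at 17 members, beside 59% of protein-coding genes, and lower at 8, beside 15%. It was equal at 4. Nr2f1 had 4 in pool 1 and 18 in pool 2, and Nr1i3 had 14 and 24. In the opposite direction, Ppara had 19 and 8, Rxrb 16 and 7, and Thra 29 and 22. Shared distal regions of members had a median log2 signal ratio of 0.32, beside 0.34 for all. With 1 library per pool, a difference between the animals and one between the libraries cannot be told apart.

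Genes of the machinery that receptors share were open without exception on the lists used. All 10 coactivator genes were open at the promoter in both pools, led by Ncoa2 at 10.4 and 12.96 and by the arginine methyltransferase Carm1 at 9.70 and 12.97. All 9 corepressor genes did, led by the scaffold Sin3a at 12.4 and 12.9 and the deacetylase Hdac3 at 5.001 and 6.46. The lowest signal on these 2 lists was that of Ppargc1a, at 0.379 and 0.504. Both shares stand beside the 61.9% of protein-coding genes and the 91.4% of CpG-rich ones. The CpG class of genes on the lists was not taken into account.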

How the data were processed

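DNase-seq peaks, footprints and false discovery rates of 2 pools were deposited per library on mm10, per the readme texts and the labels. Peaks carry the authors' signal, whose scaling the sources used here do not state. The deposited table of the FDR, an adjusted p-value, lists only intervals under 0.05. The footprints deposited by the authors hold 1 constant value, 0.01, and were used by position. The aligner and the callers were not given in the sources used here.

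The longer peak list was used. Genes and TSSs came from the basic gene set of GENCODE M21, on 21 chromosomes, and annotated starts are those of that set. The gene records of some members, such as Rarb, Hnf4a and Nr2e3, begin upstream of these starts. Peaks of the pools were merged where they overlapped by at least 1 bp. Regions were placed by their midpoint. Starts of a gene within 1 kb of each other formed 1 group. Motifs were matched on both strands in the reference genome. Mean ± SD is over the 2 pools, which limits precision, and no test was made. Scripts used Python 3.11.15, pandas 2.3.3, numpy 2.4.6 and pysam 0.24.0, and were tested on simulated data. RefSeq promoters matched 27 of 29 members.

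Members, gene lists and motifs were chosen with earlier results of these data known. Every member is named. Of each list the text names the 2 genes with the highest signal and those without a peak, and of the distal regions the 10 strongest and those with a footprinted motif. Some genes that this rule selects are not reported here. Alternatives were the shorter list, stronger peaks, other windows, 50% overlap and 1 pool at a time.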

Additional observations from a re-analysis of the deposited data

How the results depend on the processing

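Under every alternative tried, 20 to 23 of the 29 members had a promoter peak in both pools. The shorter list lost Nr5a2, Rxrg and Thra, the 50% of peaks with the most signal lost Nr1i2, Nr5a2 and Rxrg, a window of 500 bp lost Nr2f1 and Nr5a2, and an overlap of 50% of both peaks lost Nr5a2 and Rxrg. The share of protein-coding genes moved from 61.9% to 56.7% with the shorter list, 55.0% with the strongest peaks, 60.0% at 500 bp, 64.5% at 2 kb and 58.5% with the stricter overlap, and was 62.9% to 65.3% with either pool left out. The median of distal regions per member became 3 at 25 kb (2 per gene) and 11 at 100 kb (8 per gene), and 6 where regions with any base within 1 kb of a start were left out, an alternative chosen after seeing the data. That median was 4 with the shorter list, 4 with the strongest peaks and 5 with the stricter overlap. It was 8 without pool 1 and 7 without pool 2. The median per gene was not taken under these settings. Footprints were present at 20 members at 500 bp. The median log2 ratio stayed between 0.37 and 0.38 (0.40 from overlapping peaks of the pools, chosen after seeing the data). With the shorter list or exact half-sites, 6 or 7 members had a motif, again without a count over all genes. The signal of Nr2f1 moved to 0.584 at 500 bp and 4.35 at 2 kb, that of Thra to 0.554 and of Rxrg to 0.216 with the shorter list, and that of Nr5a2 to 0.220 with the shorter list or at 500 bp. The causes were not tested. No paired analysis was possible because the pools are replicates of 1 group. The choice of peak list decided the call at Nr5a2, Rxrg and Thra.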
